A study of Mus musculus with 9 samples.

Results

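The Slc25 genes encode the mitochondrial carrier family, the membrane proteins that move metabolites, nucleotides and cofactors across the inner mitochondrial membrane. Members were taken by symbol: every name beginning Slc25a followed by a digit, which gave 42 of the 22637 gene symbols in the count tables, and all 42 also stood in the log2 matrix. Of the 42, 39 were among the 17315 symbols kept for testing. Slc25a2, Slc25a18 and Slc25a41 did not pass the filter on low counts, with at most 7 counts in any library. The libraries came from kidneys of 129X1/SvJ mice at 9 weeks of age, with 3 libraries in each of 3 groups: Col4a3-/- mice treated with antimiR-21, which blocks the microRNA miR-21 (KO_antimiR21), Col4a3-/- mice given phosphate-buffered saline (KO_PBS), and wild-type mice (WT). Col4a3 encodes a collagen IV chain of the glomerular basement membrane, and its loss is a mouse model of Alport syndrome, in which the kidney scars progressively. The sample labels name no treatment for WT mice, so effects of knockout and of injection cannot be told apart between the knockout groups and WT. The dose and schedule of antimiR-21 are not stated here.

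Carriers of this family share a fold of repeated modules, and most exchange one solute for another. Together they supply the matrix with phosphate and ADP for ATP synthesis, export the ATP made there, link the citric acid cycle to the cytosol through citrate, malate and oxoglutarate, and bring in amino acids, acyl carnitines, iron, glutathione and vitamin-derived cofactors. Tubule cells of the kidney, above all those of the proximal tubule, are rich in mitochondria, because sodium reabsorption uses much ATP.

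Some libraries stood apart before any comparison. Total expected counts ran from 26448275 to 31786624 per library. Summed Y-linked transcripts stood at 0.928 CPM (CPM is a count scaled to the library size, corrected here by TMM factors) in WT 1 and 1.49 CPM in WT 3, against 102 to 118 CPM in the other 7 libraries. WT 1 and WT 3 were thus female by these transcripts and all other libraries male, so sex and group are largely confounded between WT and the knockout groups. Col4a3 itself had 70.6 to 138 CPM in KO_antimiR21, 44.3 to 94.3 CPM in KO_PBS and 257 to 371 CPM in WT. A library code in the deposited names, of unstated meaning, was L5 for KO_antimiR21 and KO_PBS 3 and L4 for the rest. Names in the deposited log2 matrix mark the same WT libraries F and M, and each name carries a number of its own. WT 2 thus came from another mouse than WT 1 and WT 3, and libraries of each group differed by far more than counting noise. The labels do not say outright that every library is a separate mouse, and p-values measure the spread between these libraries.

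The kidney's carrier pool was led by the carriers that serve ATP synthesis. Per kilobase of the longest coding transcript in GENCODE vM21, which may differ from the gene models used for counting, Slc25a5 ranked first in every group, at 626 CPM per kb in KO_antimiR21, 449.98 CPM per kb in KO_PBS and 933 CPM per kb in WT. Slc25a5 encodes ANT2, an ADP/ATP exchanger of most tissues. The phosphate carrier gene Slc25a3 ranked second in all 3 groups (395 CPM per kb in KO_antimiR21, 320.3 in KO_PBS and 538 in WT). The third place belonged to Slc25a39, a carrier needed for mitochondrial glutathione, in all 3 groups (319 CPM per kb in KO_antimiR21, 236 in KO_PBS and 365 in WT). Slc25a10, the dicarboxylate carrier, Slc25a4, the ADP/ATP exchanger ANT1 typical of heart and muscle, and Slc25a11, the oxoglutarate carrier, filled ranks 4 to 6 in WT. The order of Slc25a10 and Slc25a4 differed between KO_PBS and WT: Slc25a4 was at 126 and Slc25a10 at 112 CPM per kb in KO_PBS, against 155 and 253 CPM per kb in WT. At the other end, Slc25a31, the testis ADP/ATP exchanger ANT4, stood last of the 39 members tested in each group, at 0.241 CPM per kb in KO_antimiR21, 0.148 in KO_PBS and 0.176 in WT. The largest change of rank was that of Slc25a24, which was at rank 27 in KO_antimiR21, 20 in KO_PBS and 34 in WT.

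**Figure D1:**
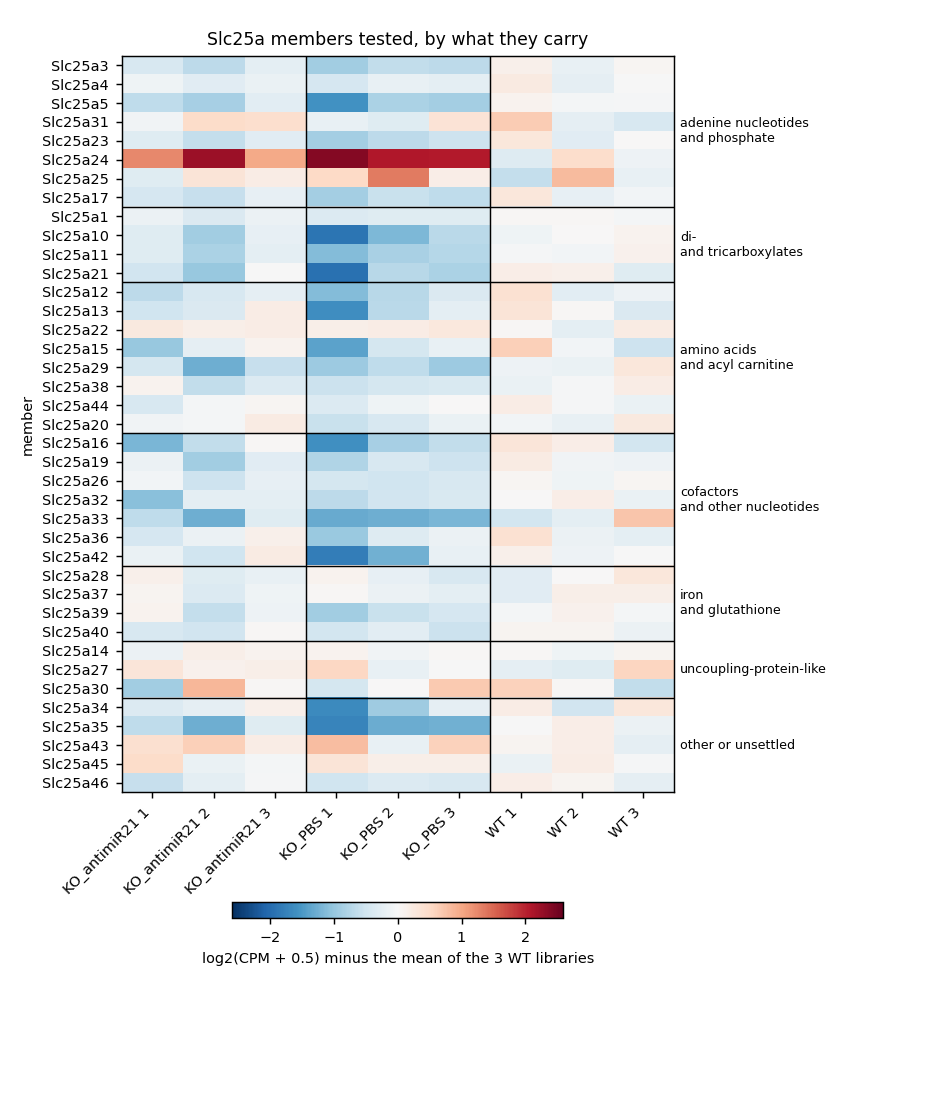
Level of each of the 39 tested members in every library, as log2(CPM + 0.5) minus the mean of the 3 WT libraries (colour, blue below and red above WT; rows are members grouped by what they carry, columns are libraries). Slc25a24 is the darkest red row in the knockout libraries, and most other rows are blue in KO_PBS, palest in KO_PBS 3 (median over members -0.38) and deepest in KO_PBS 1 (-0.68).

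Between KO_PBS and WT kidneys, most of the family lay lower in the knockout and 1 member lay much higher. At an adjusted p under 0.05 (edgeR quasi-likelihood test, Benjamini-Hochberg over all 17315 genes), 10 of 39 members fell in KO_PBS, where 9.85% of all genes did, and 1 rose, where 14.6% of all genes did. The other 28 were not called. By sign alone, 31 of 39 log2 fold changes were below 0, against 52.3% of all genes. The median over members was -0.49 and over all genes -0.03, and the members ran from -1.45 to 2.21. For 21 members every KO_PBS library was below every WT library (20.5% of all genes), and for 1 every KO_PBS library was above (22.6% of all genes). In whole-kidney RNA, fewer cells of a type and less RNA per cell cannot be told apart. The 10 members that fell were Slc25a35, Slc25a11, Slc25a5, Slc25a3, Slc25a17, Slc25a23, Slc25a33, Slc25a10, Slc25a29 and Slc25a12, and the 1 that rose was Slc25a24.

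The calls, but not the size of the family median, depended on how sex was treated. With sex as a covariate 0 members were called higher (0% of all genes) and 0 lower (0% of all genes). In that fit 31 of 39 members still had a negative log2 fold change, and 9 members had an unadjusted p under 0.05, 7 lower and 2 higher, where 25.3% of all genes did. Only WT 2 informs the male WT level there, and among the male libraries alone 0 members were called as well (0% of all genes). The median over members was -0.44 with sex as a covariate and -0.42 among the male libraries, against -0.49 without it. Of the 11 called members, Slc25a10 and Slc25a35 were as large or larger with sex as a covariate and the other 9 were smaller, with Slc25a23 and Slc25a12 smaller by more than 1.5 times. Leaving out 1 library also moved the count of lower members, to 4 without KO_PBS 1 (3.80% of all genes), 5 without KO_PBS 2 (4.40%) and 6 without WT 1 (5.52%). It was 13 without KO_antimiR21 1 (9.68% of all genes) and 14 without KO_antimiR21 2 (10.6%). Scaled by library size alone, which put the median of all genes at 0.25, the fit had a median of -0.21 over members, 27 of them below 0, with 6 called lower (5.22% of all genes) and 2 higher (21.7% of all genes). Under the Wald test of DESeq2, 17 members were lower (13.6% of all genes) and 1 higher (16.9% of all genes).

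Adenine nucleotide and phosphate carriers held both directions of change. In KO_PBS, 4 of 8 tested members of this class were lower (9.85% of all genes) and 1 was higher (14.6% of all genes). The 4 include Slc25a17, placed in the class here although it acts in the peroxisome. Slc25a5 (ANT2) had 735, 638 and 956 CPM in KO_antimiR21 1, 2 and 3, 389.9, 656 and 628 CPM in KO_PBS 1, 2 and 3, and 1223, 1109.5 and 1138 CPM in WT 1, 2 and 3. All WT libraries lay above all knockout libraries, and KO_PBS 1 was the lowest of the 9. Slc25a5 fell in KO_PBS relative to WT by 1.05 on the log2 scale (SE 0.24, edgeR adjusted p = 0.0140) and stayed called with any 1 library left out. With sex as a covariate its value was -0.99 (edgeR adjusted p = 0.121). Slc25a5 lies on the X chromosome.

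Slc25a4 (ANT1) differed less. It had 274, 242 and 264 CPM in KO_antimiR21, 218, 259 and 249 CPM in KO_PBS, and 347, 253 and 295 CPM in WT. Groups overlapped, since WT 2 was below KO_PBS 2. Its log2 fold change between KO_PBS and WT was -0.30 ± 0.15 (SE, edgeR adjusted p = 0.186).

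Slc25a3, which imports the phosphate used for ATP synthesis, had 647, 536 and 728 CPM in KO_antimiR21, 460.4, 551 and 538 CPM in KO_PBS, and 945, 761 and 897 CPM in WT. Each knockout library was below each WT library. It fell in KO_PBS relative to WT (-0.75 ± 0.17 on the log2 scale, edgeR adjusted p = 0.0156). The call was lost without WT 1 (edgeR adjusted p = 0.0539) or KO_PBS 1 (0.0552), and over all its alternatives the adjusted p ran from 8.01e-05 to 0.250.

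Slc25a24 was the member that rose. It encodes SCaMC-1, a calcium-regulated carrier that exchanges ATP-Mg for phosphate and so sets the adenine nucleotide content of the matrix. It had 20.6, 41.2 and 17.2 CPM in KO_antimiR21, 45.7, 37.1 and 36.5 CPM in KO_PBS, and 6.58, 11.7 and 7.601 CPM in WT. KO_PBS and WT were far apart, and KO_antimiR21 2 lay with the KO_PBS libraries while KO_antimiR21 1 and 3 lay between the groups. The log2 fold change between KO_PBS and WT was 2.21 ± 0.35 (edgeR adjusted p = 0.00337). With sex as a covariate it was 1.77 ± 0.49 (edgeR adjusted p = 0.0828), and every fit that left out 1 library kept the call (edgeR adjusted p from 0.00147 to 0.0187).

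Of the related calcium-regulated carriers, 1 fell and 1 was not called. Slc25a23 (SCaMC-3) had 116, 94.7 and 119 CPM in KO_antimiR21, 79.0, 90.1 and 99.6 CPM in KO_PBS, and 178, 119 and 146 CPM in WT. It fell in KO_PBS (-0.72 ± 0.18 on the log2 scale, edgeR adjusted p = 0.0190), but not without WT 1 (0.0651), KO_PBS 1 (0.0750) or KO_PBS 2 (0.0610). With sex as a covariate Slc25a23 was at -0.41 (edgeR adjusted p = 0.277). Slc25a25 (SCaMC-2) was at 0.73 ± 0.50 (95% interval -0.40 to 1.86) with overlapping groups (edgeR adjusted p = 0.332), and its difference from Slc25a24 was not tested. Slc25a17, the carrier of coenzyme A and other cofactors in the peroxisome rather than the mitochondrion, had 87.6, 78.4 and 102 CPM in KO_antimiR21, 64.0, 79.0 and 75.0 CPM in KO_PBS, and 145, 102 and 113 CPM in WT. It too fell in KO_PBS (-0.73 ± 0.17 on the log2 scale, edgeR adjusted p = 0.0157), with the call lost without KO_PBS 1 (0.0646).

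**Figure D2:**
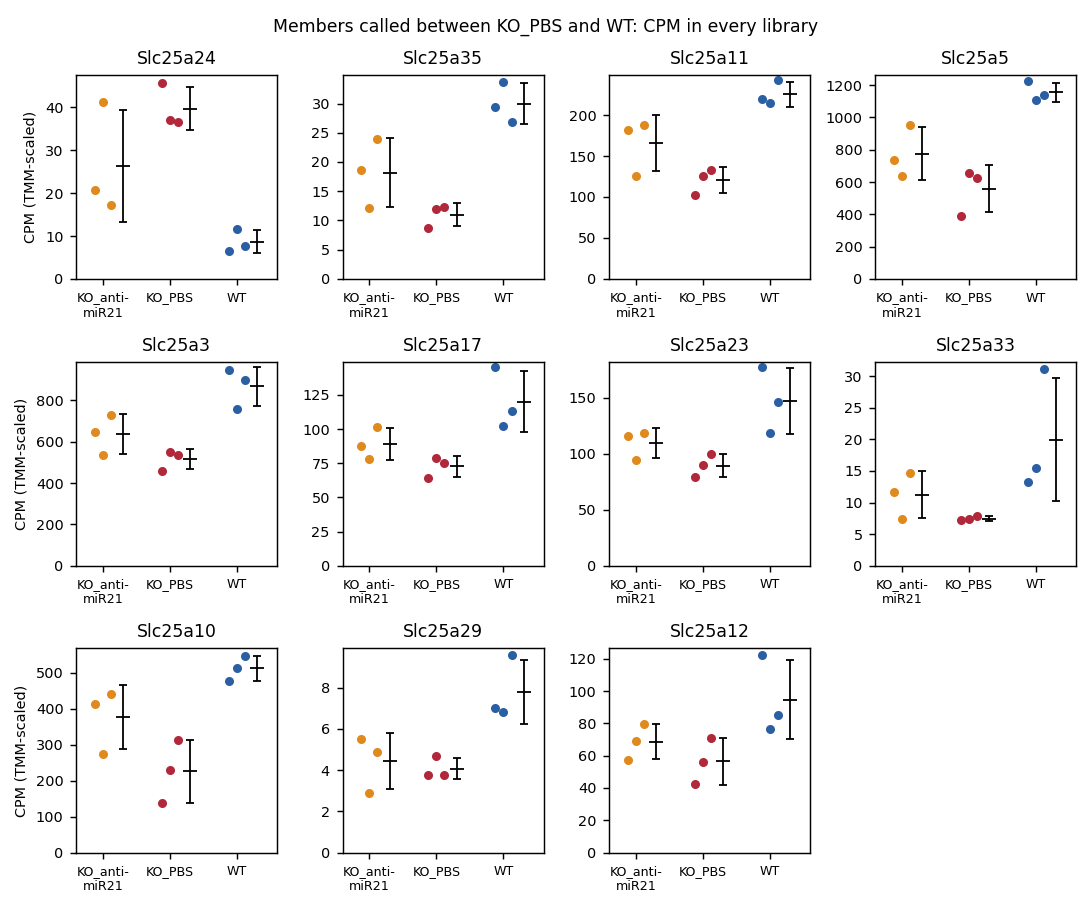
CPM of the 11 members called between KO_PBS and WT, 1 panel each, with KO_antimiR21 left, KO_PBS in the middle and WT right. Points are libraries, and the bar beside each group is the mean with its SD (n = 3). In the first panel Slc25a24 averages 26.3 CPM in KO_antimiR21, 39.8 CPM in KO_PBS and 8.62 CPM in WT, and in each of the other 10 panels WT has the highest mean.

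Carriers of di- and tricarboxylates all had negative log2 fold changes in KO_PBS, against 52.3% of all genes. Of these carriers 2 of 4 fell (9.85% of all genes). Slc25a10, which exchanges malate or succinate for phosphate, had 412, 274 and 441 CPM in KO_antimiR21, 137, 229 and 313 CPM in KO_PBS, and 476, 515 and 546 CPM in WT. KO_PBS libraries differed among themselves by more than those of WT, and none reached the WT range. Slc25a10 fell in KO_PBS (-1.18 ± 0.30 on the log2 scale, edgeR adjusted p = 0.0211), and the call was lost without WT 3 (0.0560) or KO_PBS 2 (0.0656).

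Slc25a11, the oxoglutarate-malate exchanger of the malate-aspartate shuttle, had 182, 126 and 188 CPM in KO_antimiR21, 103, 125 and 133 CPM in KO_PBS, and 219.6, 214 and 242 CPM in WT. The knockout and WT libraries did not overlap. It fell in KO_PBS by 0.90 on the log2 scale (SE 0.18, edgeR adjusted p = 0.00854), a call kept with each library left out in turn. Slc25a1, the citrate exporter that feeds fatty acid and sterol synthesis, had 112, 95.9 and 113 CPM in KO_antimiR21, 97.0, 99.7 and 100.7 CPM in KO_PBS, and 127, 127 and 119.8 CPM in WT. WT lay above both knockout groups, which overlapped, yet the log2 fold change was small (-0.33 ± 0.11) and not called (edgeR adjusted p = 0.0559). It was called without KO_antimiR21 2 (0.0452), and scaled by library size alone its log2 fold change was -0.05. Slc25a21, the oxodicarboxylate carrier of lysine and tryptophan breakdown, was at -1.12 ± 0.36 (edgeR adjusted p = 0.0531).

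Amino acid and acyl carnitine carriers included 2 of 8 tested members that fell in KO_PBS (9.85% of all genes). Both aspartate-glutamate exchangers of the malate-aspartate shuttle were measured. Slc25a12 (aralar) had 57.4, 69.4 and 79.4 CPM in KO_antimiR21, 42.3, 55.8 and 71.3 CPM in KO_PBS, and 123, 76.7 and 85.3 CPM in WT. Slc25a13 (citrin) had 68.3, 74.5 and 112 CPM in KO_antimiR21, 31.5, 59.4 and 81.2 CPM in KO_PBS, and 123, 99.5 and 75.4 CPM in WT. KO_PBS 1 was the lowest library for both, and WT 1 the highest. Slc25a12 was just past the threshold in KO_PBS (-0.75 ± 0.24 on the log2 scale, edgeR adjusted p = 0.0499), and was called in 2 of the 9 fits that left out 1 library (edgeR adjusted p from 0.0372 to 0.160). With sex as a covariate Slc25a12 was at -0.44 (edgeR adjusted p = 0.440). The log2 fold change of Slc25a13 was about as large (-0.79 ± 0.34) but its groups overlapped and it was not called (edgeR adjusted p = 0.129).

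Slc25a29, a carrier of basic amino acids, was a minor member with 5.51, 2.90 and 4.89 CPM in KO_antimiR21, 3.78, 4.67 and 3.76 CPM in KO_PBS, and 7.003, 6.82 and 9.57 CPM in WT. WT libraries were the highest. It fell in KO_PBS (-0.94 ± 0.28 on the log2 scale, edgeR adjusted p = 0.0383), and the call was lost when any 1 of the 6 libraries compared was left out (edgeR adjusted p from 0.0600 to 0.106). Slc25a20, which brings acyl carnitines into the matrix for fatty acid oxidation, had 65.0, 67.1 and 81.3 CPM in KO_antimiR21, 46.7, 52.3 and 62.0 CPM in KO_PBS, and 66.0, 61.2 and 83.7 CPM in WT. KO_PBS held the lowest values but overlapped WT, and the log2 fold change was -0.39 ± 0.17 (edgeR adjusted p = 0.123). The remaining tested carriers of the class, Slc25a15 (ornithine), Slc25a22 (glutamate), Slc25a38 (glycine) and Slc25a44 (branched-chain amino acids), were not called, at -0.68 to 0.20.

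Among carriers of cofactors and other nucleotides, all 7 tested members had negative log2 fold changes, against 52.3% of all genes. Of the 7, 1 fell in KO_PBS (9.85% of all genes). Slc25a33, a pyrimidine nucleotide carrier, had 11.6, 7.44 and 14.7 CPM in KO_antimiR21, 7.18, 7.38 and 7.83 CPM in KO_PBS, and 13.2, 15.5 and 31.1 CPM in WT. WT 3 stood far above the other WT libraries, and the KO_PBS libraries were nearly equal. Slc25a33 fell in KO_PBS (-1.42 ± 0.35 on the log2 scale, edgeR adjusted p = 0.0205), and without WT 3 the value was -0.97, still called. The call was lost without KO_PBS 1 (0.0628) or KO_PBS 2 (0.0649). Slc25a42, the coenzyme A carrier, had 128, 102 and 168 CPM in KO_antimiR21, 41.1, 60.4 and 126 CPM in KO_PBS, and 159.8, 133 and 144 CPM in WT. KO_PBS 3 was far above its group mates and just under WT 2, and the log2 fold change of -0.94 ± 0.37 was not called (edgeR adjusted p = 0.0982).

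Iron and glutathione carriers had 0 of 4 members called between KO_PBS and WT, where 9.85% of all genes were lower and 14.6% higher. The mitoferrins, which import iron for heme and iron-sulfur clusters, showed overlapping groups. Slc25a37 (mitoferrin 1) had 47.7, 35.4 and 41.9 CPM in KO_antimiR21, 46.1, 40.6 and 38.0 CPM in KO_PBS, and 36.6, 50.1 and 50.1 CPM in WT. Slc25a28 (mitoferrin 2) had 81.6, 59.6 and 65.1 CPM in KO_antimiR21, 79.6, 64.2 and 55.9 CPM in KO_PBS, and 60.3, 74.7 and 91.7 CPM in WT. Their log2 fold changes between KO_PBS and WT were -0.13 ± 0.17 and -0.18 ± 0.20 (edgeR adjusted p = 0.615 and 0.561), and turned to 0.15 and 0.10 when scaled by library size alone. The glutathione carriers Slc25a39 and Slc25a40 were at -0.63 ± 0.21 and -0.45 ± 0.18, with WT above KO_PBS in every library but no call (edgeR adjusted p = 0.0562 and 0.111).

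The uncoupling-protein-like members were not called either, at 0.02 to 0.10. Slc25a30, known as kidney mitochondrial carrier protein 1, had 15.4, 53.5 and 29.8 CPM in KO_antimiR21, 21.1, 29.3 and 47.3 CPM in KO_PBS, and 44.8, 29.8 and 18.6 CPM in WT. Spread within each group was wider than any difference between them, and the log2 fold change of 0.07 ± 0.48 (edgeR adjusted p = 0.939) turned negative without WT 3 or KO_PBS 3.

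Of the members whose substrate is unsettled, 1 of 5 tested fell in KO_PBS (9.85% of all genes). Slc25a35 had 18.6, 12.1 and 23.9 CPM in KO_antimiR21, 8.77, 11.9 and 12.2 CPM in KO_PBS, and 29.4, 33.7 and 26.8 CPM in WT. All WT libraries were above all knockout libraries. It fell in KO_PBS by 1.45 on the log2 scale (SE 0.25, edgeR adjusted p = 0.00480), was called with each library left out in turn, and with sex as a covariate was at -1.62 ± 0.33 (edgeR adjusted p = 0.0553).

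**Figure D3:**
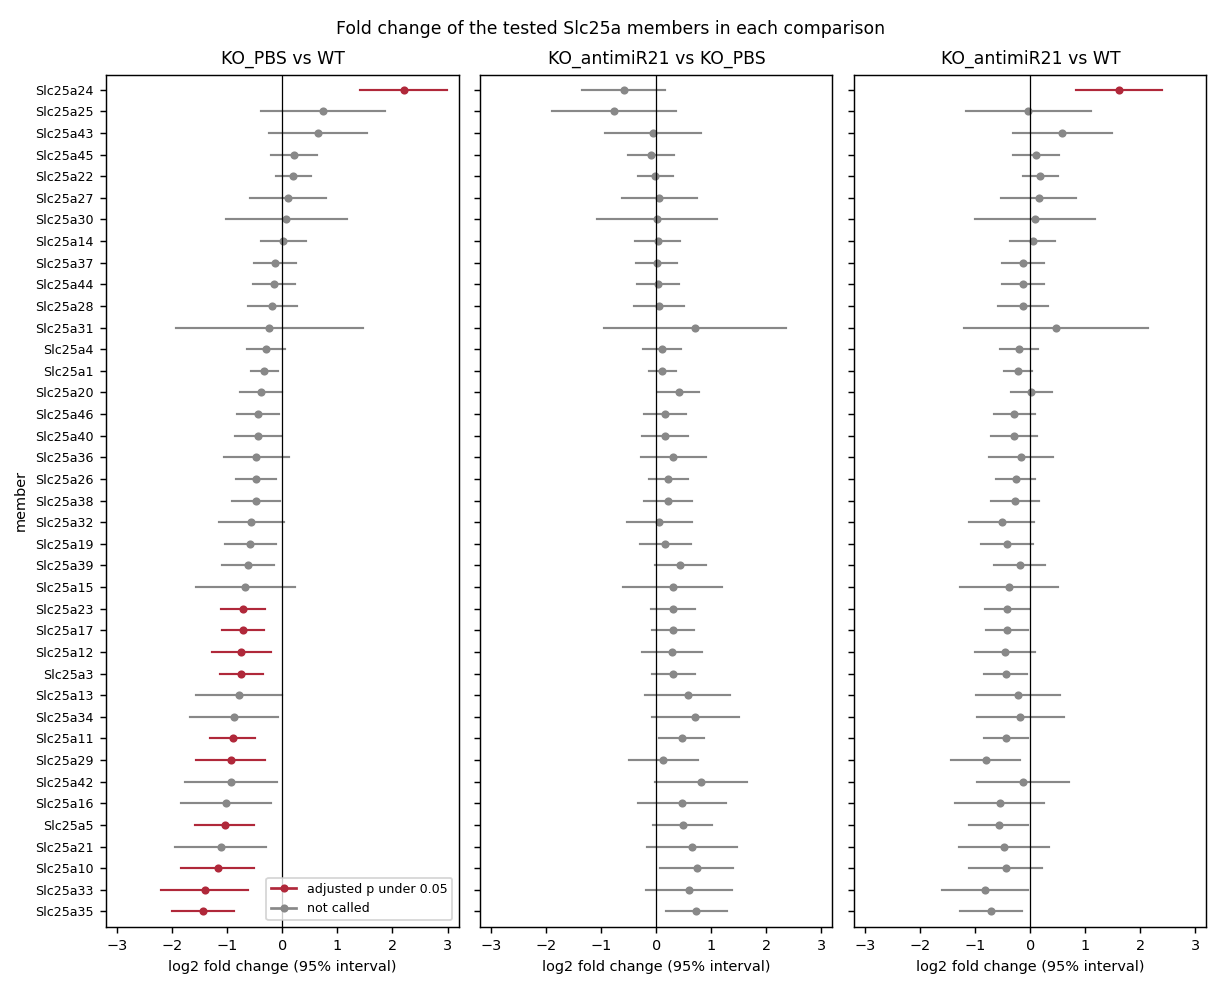
Log2 fold change (x axis, points with 95% intervals) of the 39 tested members (rows, ordered by the first panel) in KO_PBS against WT, KO_antimiR21 against KO_PBS and KO_antimiR21 against WT. Red marks an adjusted p under 0.05: 11 members in the first panel, 0 in the second and 1, Slc25a24, in the third.

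The second comparison asked whether carrier levels in the knockout kidney differed with the inhibitor. No member was called between KO_antimiR21 and KO_PBS: 0 of 39 by edgeR, where 0% of all genes were. By DESeq2 it was 0 of 39 too, with 0.0693% of all genes lower and 0.0404% higher. At an unadjusted p under 0.05 there were 4 members, where 6.95% of all genes were that low. By sign, 34 of 39 log2 fold changes were above 0 and 5 below 0, against 51.9% below 0 over all genes, and the median was 0.21 over members and -0.01 over all genes. Scaled by library size alone, which put the median of all genes at -0.14, the median over members was 0.07 and 24 members were above 0 and 15 below. With the library code as a covariate 28 were above 0 and 11 below. Only Slc25a20 had every KO_antimiR21 library above every KO_PBS library (3.83% of all genes), and 0 members had every library below (6.85% of all genes).

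The 5 members of lowest p were Slc25a35, Slc25a11, Slc25a10, Slc25a20 and Slc25a42, whose values in each library are given above. Their log2 fold changes were 0.73 ± 0.25, 0.46 ± 0.18, 0.73 ± 0.29, 0.41 ± 0.17 and 0.81 ± 0.37. The edgeR adjusted p was 0.707 for each. With the library code as a covariate the log2 fold changes were 0.57, 0.31, 0.26, 0.20 and 0.07 in the same order. Of the KO_PBS libraries, only KO_PBS 3 shares its code with KO_antimiR21. For 4 of the 5 the groups overlapped: KO_antimiR21 2 lay near the KO_PBS libraries, while KO_antimiR21 1 and 3 lay above most of them. The log2 fold change of Slc25a24 was -0.59 ± 0.33 (95% interval -1.35 to 0.16, edgeR adjusted p = 0.733), and that of Slc25a5 was 0.48 ± 0.24 (95% interval -0.06 to 1.01, edgeR adjusted p = 0.712). The median over members was 0.11 without KO_antimiR21 3 and 0.37 without KO_antimiR21 2.

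The third comparison set the inhibitor-treated knockout against WT. In KO_antimiR21, 1 member rose (6.72% of all genes) and 0 of 39 fell (0.427% of all genes), with 9 members at an unadjusted p under 0.05 (20.2% of all genes). DESeq2 called 1 member lower (2.28% of all genes), Slc25a29 (adjusted p = 0.0423), and 1 higher (9.34% of all genes). The member that rose was again Slc25a24 (log2 fold change 1.61 ± 0.35, edgeR adjusted p = 0.0241). It lost the call without WT 1 (0.0831) or WT 3 (0.0972), when KO_PBS was left out of the fit (0.0718), with the library code as a covariate (0.363) and with sex as a covariate (0.369). Its log2 fold change was 1.79 with the code and 1.18 with sex as a covariate, and each of those fits called 0% of all genes. Over all its alternatives the adjusted p ran from 0.000229 to 0.401.

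By position, 2 members had every KO_antimiR21 library above every WT library (14.6% of all genes), Slc25a24 and Slc25a43, and 10 had every library below (9.83% of all genes). Log2 fold changes were below 0 for 30 of 39 members, against 54.2% of all genes, with a median of -0.23 over members and -0.04 over all genes. After Slc25a24 the members of lowest p were Slc25a29 (-0.82 ± 0.28), Slc25a35 (-0.72 ± 0.25), Slc25a3 (-0.45 ± 0.17) and Slc25a17 (-0.43 ± 0.17), with edgeR adjusted p from 0.133 to 0.193. Comparisons with KO_PBS and with WT share libraries, so the values of Slc25a35 (-1.45 for KO_PBS and -0.72 for KO_antimiR21, each against the same WT libraries) are not independent.

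The balance between paralogs was read as the log2 ratio of their counts in each library. The ratio of Slc25a5 to Slc25a4 was 1.42, 1.40 and 1.86 in KO_antimiR21, 0.84, 1.34 and 1.33 in KO_PBS, and 1.82, 2.13 and 1.95 in WT. The ratio was above 0 in every library and lowest in KO_PBS, where no library reached the values of either other group. It is a ratio of counts, not corrected for transcript length. KO_PBS minus WT was -0.79, KO_antimiR21 minus KO_PBS 0.39 and KO_antimiR21 minus WT -0.40. In two-sided exact permutation tests over libraries p was 0.1, 0.1 and 0.2, where 3 against 3 cannot go below 0.1, and 0.45 for each after Benjamini-Hochberg adjustment over 9 such tests. RSEM divides reads that fit several near-identical sequences. The counts of Slc25a5 were not whole in any of the 9 libraries, so its split from close copies is uncertain. Counts of Slc25a3, Slc25a10, Slc25a12 and Slc25a23, among other members, were not whole in any library either. Per library 9848 to 10931 gene symbols had counts that were not whole.

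The other 2 ratios overlapped between all groups. Slc25a13 over Slc25a12 averaged 0.28 ± 0.20 in KO_antimiR21, -0.05 ± 0.33 in KO_PBS and 0.07 ± 0.28 in WT (SD, n = 3; exact permutation p from 0.2 to 0.7). Slc25a37 over Slc25a28 averaged -0.72 ± 0.08 in KO_antimiR21, -0.67 ± 0.11 in KO_PBS and -0.72 ± 0.15 in WT (SD, n = 3; exact permutation p from 0.7 to 1).

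**Figure D4:**
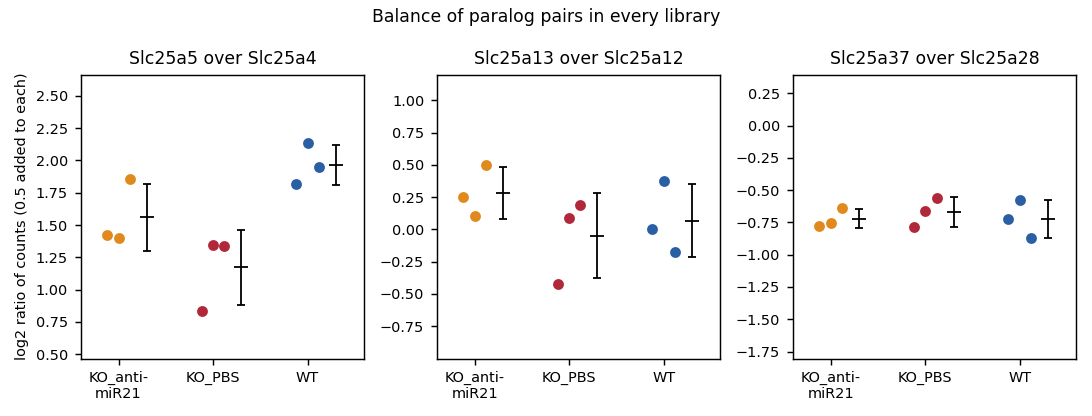
Log2 ratio of counts for 3 paralog pairs in every library (points), with the mean and SD of each group (n = 3), for KO_antimiR21, KO_PBS and WT from left to right. For Slc25a5 over Slc25a4 the KO_PBS libraries (0.84 to 1.34) lie below all others, and in the other panels the groups overlap.

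The summed level of the family was read beside that of its partners in ATP synthesis. All members together had 4193, 3493 and 4721 CPM in KO_antimiR21, 2617, 3394 and 3636 CPM in KO_PBS, and 5647, 5059 and 5254 CPM in WT. The 15 ATP synthase genes of the list had 8184, 5823 and 8818 CPM in KO_antimiR21, 4736, 6297 and 6149.6 CPM in KO_PBS, and 11807, 10301 and 11269.9 CPM in WT. In both sums the WT libraries were highest and KO_PBS 1 lowest. Over all genes 9.85% fell in KO_PBS against WT, with a median log2 fold change of -0.03. With sex as a covariate 0% of all genes were called there. Of the ATP synthase genes, which use the ADP and phosphate that Slc25a5 and Slc25a3 bring in, 12 of 15 fell in KO_PBS against WT, with a median log2 fold change of -0.88, among them Atp5k at -1.20 ± 0.24 (edgeR adjusted p = 0.00805) and Atp5c1 at -0.97 ± 0.21 (edgeR adjusted p = 0.0120).

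Markers of kidney and immune cells also differed between the groups. The 15 proximal tubule markers summed to 7466 to 15337 CPM in KO_antimiR21, 3025 to 9154 CPM in KO_PBS and 18634 to 22802 CPM in WT, and 10 of 15 fell in KO_PBS against WT (median log2 fold change -1.49). The 9 macrophage markers measured summed to 388 to 831 CPM in KO_antimiR21, 813 to 1075 CPM in KO_PBS and 172 to 210.1 CPM in WT, and 8 of 9 rose in KO_PBS. In the same comparison 3 of 7 markers of the thick limb and distal tubule, 3 of 6 of the collecting duct, 0 of 5 of the podocyte and 1 of 2 tested of blood were lower, and 5 of 5 of T cells were higher. Over all genes 9.85% were lower and 14.6% higher in that comparison, and 0% were called with sex as a covariate. None of the proximal tubule or macrophage markers tested was at 0. The brown fat genes Ucp1 and Cidea, which would mark fat cut with the kidney, were not called, and stood at 30.9 and 36.8 CPM in KO_antimiR21 3 and at 14.6 and 13.8 CPM in WT 2, against at most 5.70 and 3.42 CPM elsewhere. With the inhibitor (KO_antimiR21 against KO_PBS), the median log2 fold change was 0.73 over proximal tubule markers and -0.59 over macrophage markers. It was 0.45 over the ATP synthase genes, 0.21 over members and -0.01 over all genes. None of these genes was called there by edgeR, where 0% of all genes were. The part of these markers in the results was not tested.

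**Figure D5:**
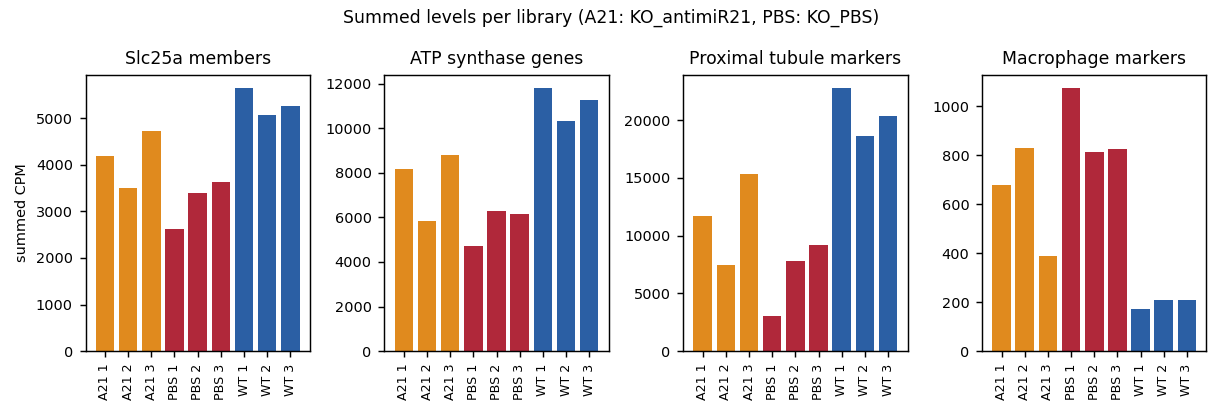
Summed CPM in each library (bars) of the Slc25a members, 15 ATP synthase genes, 15 proximal tubule markers and 9 macrophage markers, with KO_antimiR21 left, KO_PBS in the middle and WT right. KO_PBS 1 has the lowest family sum (2617 CPM), the lowest proximal tubule sum (3025 CPM) and the highest macrophage sum (1075 CPM).

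Carriers of the same family that bear other symbols were read beside the members. Of 7 tested, 1 rose in KO_PBS against WT (14.6% of all genes) and 0 fell (9.85% of all genes). It was Ucp2, an uncoupling protein that is abundant in macrophages, with 394, 445 and 293 CPM in KO_antimiR21, 410.0, 373 and 436 CPM in KO_PBS, and 118, 192 and 181 CPM in WT. All knockout libraries lay above all WT libraries. Its log2 fold change in KO_PBS against WT was 1.31 ± 0.22 (edgeR adjusted p = 0.00452). In KO_antimiR21 against WT it was 1.21 ± 0.22 (edgeR adjusted p = 0.0129). With sex as a covariate 0% of all genes were called in either comparison. With the library code as a covariate 0% were called in KO_antimiR21 against WT.

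Other transporters of the mitochondrial membranes had 8 of 15 lower in KO_PBS against WT and 0 higher. Their median log2 fold change was -0.67. To set beside each list here, the same comparison had 9.85% of all genes lower and 14.6% higher. The median over all genes was -0.03. With sex as a covariate 0% of all genes were called there, so none of those named here. Sfxn5, a sideroflexin, was at -0.92 ± 0.19 and Brp44l, a subunit of the pyruvate carrier now named Mpc1, at -1.0995 ± 0.23 (edgeR adjusted p = 0.00987 and 0.0109). The machinery that inserts carriers into the inner membrane had 0 of 13 genes called and a smaller median of -0.30, with Tomm7, a subunit of the outer membrane translocase, at -0.63 ± 0.21 and Timm8a1, a small chaperone between the membranes, at -0.55 ± 0.19 (edgeR adjusted p = 0.0544 and 0.0641). Among 8 regulators of mitochondrial gene expression 2 fell, the nuclear receptor Esrra (-0.88 ± 0.17, edgeR adjusted p = 0.00729) and Tfam, which packages and transcribes mitochondrial DNA (-0.55 ± 0.16, edgeR adjusted p = 0.0328). None of the genes on these 4 lists was called by edgeR between KO_antimiR21 and KO_PBS, where 0% of all genes were. In that comparison the median log2 fold change was 0.35 over the other transporters and 0.21 over the import machinery.

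Because the inhibitor targets miR-21, the members' transcripts were searched for matches to its seed. The sequences below show the microRNA, with seed bases 2 to 8 in capitals, and the matches with a few flanking bases, the match in capitals, all written 5′ to 3′. The microRNA is from RefSeq (GRCm38.p6) and the transcripts are those of GENCODE vM21, matched by symbol.
miR-21a-5p: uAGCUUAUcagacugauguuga
Slc25a21 (8mer): aaaagaagATAAGCTAgacacacc
Slc25a36 (8mer): actataaaATAAGCTAgtggatac
Slc25a12 (7mer-m8): atgaatctATAAGCTgctttgga
Slc25a30 (7mer-m8): cattttccATAAGCTtttctatt

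A 7mer-m8 match is the reverse complement of the seed, ATAAGCT, and an 8mer is the same followed by A (ATAAGCTA), read on the transcript strand. In the longest annotated 3′ region after the stop codon, 3 of 38 members (7.895%) held an 8mer, against 2.472% of 11774 tested genes with such a region, and 5 of 38 (13.16%) held either, against 7.839%. Slc25a46, an outer membrane member that acts in mitochondrial fission, holds the remaining 8mer. Release from miR-21 would be read as a higher level with the inhibitor. Between KO_antimiR21 and KO_PBS the log2 fold changes were 0.65 ± 0.36 for Slc25a21, 0.31 ± 0.26 for Slc25a36, 0.16 ± 0.17 for Slc25a46, 0.28 ± 0.24 for Slc25a12 and 0.02 ± 0.48 for Slc25a30, none called (edgeR adjusted p from 0.733 to 0.999). In this comparison 0% of all genes were called, and 34 of the 39 tested members were above 0. Whether members with a match differed from those without was not tested. For all 5 the KO_antimiR21 and KO_PBS libraries overlapped. Over all genes 3.83% had every KO_antimiR21 library above every KO_PBS library, and 6.85% had every library below.

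Promoters were read for the motifs of regulators of mitochondrial genes, and the 2 printed here are those of the most abundant member with a match and of the member that rose. RefSeq promoter windows around the gene start (GRCm38.p6) were matched by symbol for 32 members. Capitals mark the match to the motif of NRF1, a factor that drives nuclear genes of the respiratory chain.
Slc25a3 (chr10:91123918-91124217, minus strand): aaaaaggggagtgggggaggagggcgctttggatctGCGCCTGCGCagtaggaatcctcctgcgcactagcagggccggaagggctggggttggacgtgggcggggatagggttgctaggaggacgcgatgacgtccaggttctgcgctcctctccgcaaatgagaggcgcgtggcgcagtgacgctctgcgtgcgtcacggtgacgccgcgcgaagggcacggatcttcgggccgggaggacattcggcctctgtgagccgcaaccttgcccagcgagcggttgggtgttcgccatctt
Slc25a24 (chr3:109122899-109123198, plus strand): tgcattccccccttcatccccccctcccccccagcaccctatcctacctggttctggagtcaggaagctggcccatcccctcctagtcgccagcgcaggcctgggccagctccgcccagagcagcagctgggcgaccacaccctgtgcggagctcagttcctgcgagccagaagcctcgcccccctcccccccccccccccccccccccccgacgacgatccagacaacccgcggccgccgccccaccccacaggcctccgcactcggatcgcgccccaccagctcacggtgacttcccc

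The NRF1 motif, searched on both strands, was found in 2 of 32 members, Slc25a3 (at -214 from the start) and Slc25a31 (at -45), and in 5.188% of all symbols with a promoter. The letters TNAAGGTCA, also searched on both strands and bound by estrogen-related receptors such as the product of Esrra, were found in 0 of 32 members and in 1.432% of all symbols. Slc25a3 fell in KO_PBS and Slc25a31 was at -0.24 ± 0.75 with fewer than 1 CPM in each library (edgeR adjusted p = 0.862). The printed promoters are 65.7% (Slc25a3) and 72.3% (Slc25a24) G and C.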

How the data were processed

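Whole-kidney mRNA was measured in 9 libraries, 3 in each of 3 groups taken from the labels. The labels' protocols give TruSeq RNA v2 libraries and an input of 150 ng. The authors deposited expected counts per gene symbol from RSEM, with Bowtie, limma and the mouse build mm9 named in the submitters' processing notes and no versions given. They also deposited a log2 matrix, which equals log2 CPM plus a constant per library within 1.01e-13. Expected counts were rounded to whole numbers.

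Tests used edgeR 4.0.16 (R 4.3.3): TMM scaling, filterByExpr, 1 quasi-likelihood fit over all 9 libraries, and Benjamini-Hochberg adjustment over 17315 genes in each comparison. The threshold was an adjusted p of 0.05. Values after ± are the SE of a log2 fold change or, for means over libraries, the SD. DESeq2 1.42.0 and limma 3.58.1 gave alternatives. The fits were checked on simulated counts. Total expected counts were 26448275 to 31786624 per library. Chi-square tests of counts between libraries of a group gave 30.7 to 137.1 per gene, so no library was counted as a copy of another.

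Members, lists and tests were chosen with earlier results of these data known. Members described in full were those called, the paralog pairs and carriers listed beforehand by substrate, and the 5 of lowest p in each of the other comparisons. Slc25a21, Slc25a25, Slc25a31, Slc25a39, Slc25a40 and Slc25a43 were named after their values were seen. Also named, though outside that choice, were Slc25a15, Slc25a22, Slc25a36, Slc25a38, Slc25a44 and Slc25a46. The search for miR-21 seed matches was added after the results were seen. Protein sequences were not analysed here.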

Additional observations from a re-analysis of the deposited data

How the results depend on the processing

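Between KO_PBS and WT, 1 member was called higher (14.6% of all genes) and 10 lower (9.85%). Scaling by library size alone gave 2 higher (21.7% of all genes) and 6 lower (5.22%), and DESeq2 gave 17 lower (13.6%). Sex as a covariate gave 0 higher and 0 lower (0% of all genes). Among male libraries alone the median over members was -0.42. Leaving out 1 library gave 4 to 14 lower (3.80% to 10.6% of all genes). Between KO_antimiR21 and WT, 1 member was called higher (6.72% of all genes). The count was 0 with the 2 groups fitted alone (4.145% of all genes). It was also 0 with sex or the library code as a covariate (0% of all genes in each). With 1 library left out it was 0 to 1 (3.70% to 8.34% of all genes). Among male libraries alone the median over members was -0.20. DESeq2 called 1 member lower there (2.28% of all genes). Between KO_antimiR21 and KO_PBS the count was 0 under every alternative run. Each of these fits called 0% of all genes, except DESeq2 (0.0693% lower and 0.0404% higher).

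Signs turned for members and ratios that were not called. Scaled by library size alone, the log2 fold change between KO_PBS and WT was 0.10 for Slc25a28 and 0.15 for Slc25a37. Slc25a30 was at -0.30 with the library code as a covariate, at -0.30 within 1 code, and at -0.33 to 0.45 with 1 library left out. Among male libraries the difference between KO_PBS and WT in the log2 ratio of Slc25a37 to Slc25a28 was -0.0921, and between KO_antimiR21 and WT it was -0.14. The ratio of Slc25a13 to Slc25a12 turned to -0.0932 between KO_antimiR21 and WT, while between KO_PBS and WT it kept its sign and moved to -0.42. With 1 library left out, the ratio of Slc25a13 to Slc25a12 ran from -0.24 to 0.0717 between KO_PBS and WT. That of Slc25a37 to Slc25a28 ran from -0.0202 to 0.13 between KO_PBS and WT, -0.11 to 0.00307 between KO_antimiR21 and KO_PBS, and -0.0724 to 0.0747 between KO_antimiR21 and WT. The cause was not tested.

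A replicate block gave 1 member higher (11.99% of all genes) and 8 lower (6.52%) between KO_PBS and WT. It gave 0 called between KO_antimiR21 and KO_PBS (0% of all genes). Between KO_antimiR21 and WT it gave 1 higher (5.088% of all genes) and 0 lower (0.2426%). Deviations of same-numbered libraries correlated from -0.45 to 0.49, so the numbers were not taken to pair them. Male libraries alone leave WT 2 as the lone WT library, assumed to vary like the others. No code holds both KO_antimiR21 and WT, so that fit was not run. Members with few counts, such as Slc25a31, are limited by depth.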
